A study of Mus musculus with 96 samples.

Results

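Epidermal RNA from mice built to express working Arntl, a clock gene, only in keratin 14-expressing epithelium was followed over one day in 24 libraries of the 96 in the study. These are all the libraries of the epidermis-reconstituted genotype (EpiRE), 4 mice at each of 6 times, and they were taken from the labels without regard to any measured value. The mice were male C57BL/6 animals aged 8 weeks, homozygous for the Arntl stopFL allele, carrying K14Cre as tg/wt and wt/wt for Syt10-Cre. A stop cassette silences Arntl until Cre removes it, and the keratin 14 promoter confines Cre to keratin 14-expressing cells and their progeny, so by design the brain and other tissues without keratin 14 keep the cassette. Arntl outside the epidermis was not measured here. All mice lived under lights switched on for 12 h and off for 12 h, with free access to chow, and zeitgeber time 0 (ZT0) is lights on. Epidermis was freed from back skin with dispase, and each library is a separate mouse. A read total for Arntl cannot tell a working transcript from one that still carries the cassette, so its level is no check of the genotype label.

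The clock is a feedback loop. ARNTL (BMAL1) pairs with CLOCK or NPAS2 and switches on the Per, Cry, Nr1d and Dbp genes through E-box sequences, after which PER and CRY proteins shut the activators down and REV-ERB proteins, made from Nr1d1 and Nr1d2, repress Arntl. The DBP, TEF and HLF activators and the NFIL3 repressor then compete for D-box sequences in further genes. In epidermis the clock is known for timing the replication of DNA and the division of basal keratinocytes.

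Values are log2 RPKM (reads scaled by transcript length and by library size), and levels are given here in RPKM. Estimated depth was 12.3 to 19.9 Mreads (megareads) per library with a median of 15.1 Mreads. The highest correlation between 2 libraries over genes was 0.991, and none were duplicates. Keratinocyte genes dominated, with summed basal keratinocyte markers at 12979 to 18427 RPKM, against 41.5 to 89.3 for T cells, 89.8 to 207 for Langerhans and dendritic cells, 16 to 38.5 for fibroblasts and 0.429 to 1.08 for endothelium. A bulk level cannot tell fewer cells of a type from less RNA per cell. The third mouse of ZT16 was farthest from its time in clock genes: it was the lowest of its 4 mice in 12 of 18 and the highest in 3, at a median distance of 0.86 log2 from the other three. The next largest distance was 0.63 log2, in the second mouse of ZT16, and 3 other mice were also at an extreme in 15 of the 18 genes. Over all tested genes it was at an extreme in 52.2%, and the other libraries ranged from 34.0% to 63.1%. Results are given with and without this mouse where it matters.

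Across the 12149 genes that averaged 1 RPKM or more, 350 genes (2.88%) followed a 24 h curve, that is, a fitted cosine with a free peak time (limma F test over 24 mice, adjusted p below 0.05 after Benjamini-Hochberg adjustment over all tested genes). Of these, 81 had a fitted peak at least 1.5 times the trough. Peaks gathered around lights off, with 146 genes (41.7%) between ZT10 and ZT14, against 15 between ZT18 and ZT22 and 17 between ZT22 and ZT2. Without the third ZT16 mouse the same test called 556 genes (4.58%), and 338 of the 350 were among them. Leaving out 1 mouse at a time gave 188 to 556 genes, the lowest without the first mouse of ZT4. The count also fell by more than 1.5 times without the fourth of ZT0 (225), the first of ZT12 (226), the first of ZT16 (217) or the fourth of ZT16 (214).

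Short stretches of promoter are shown first for clock and replication genes that were called and hold a match to a motif known for such genes. Each is the 250 bases upstream of a RefSeq transcription start on GRCm38.p6, written 5′ to 3′ on the strand of the gene. Capitals mark CACGTG (the E-box) in Ciart and Tef, TTANNTAA (a D-box core) in Per3, and TTTNNCGC (an E2F core) in Mcm5 and Uhrf1, each searched on both strands. Tef also holds 1 TTANNTAA match, left in lower case. In Mcm5 the capitals cover 2 overlapping matches on opposite strands.
Ciart promoter (chr3:95882229-95882478, minus strand): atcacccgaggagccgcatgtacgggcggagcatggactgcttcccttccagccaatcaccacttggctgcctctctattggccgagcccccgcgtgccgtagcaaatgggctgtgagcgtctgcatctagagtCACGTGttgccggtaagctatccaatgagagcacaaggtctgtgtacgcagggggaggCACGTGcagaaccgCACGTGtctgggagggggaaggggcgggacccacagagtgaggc
Tef promoter (chr15:81802423-81802672, plus strand): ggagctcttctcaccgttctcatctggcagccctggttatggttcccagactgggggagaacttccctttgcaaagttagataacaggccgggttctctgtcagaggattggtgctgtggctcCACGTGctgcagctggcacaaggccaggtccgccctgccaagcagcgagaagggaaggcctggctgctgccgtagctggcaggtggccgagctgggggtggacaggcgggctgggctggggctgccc
Per3 promoter (chr4:151044666-151044915, minus strand): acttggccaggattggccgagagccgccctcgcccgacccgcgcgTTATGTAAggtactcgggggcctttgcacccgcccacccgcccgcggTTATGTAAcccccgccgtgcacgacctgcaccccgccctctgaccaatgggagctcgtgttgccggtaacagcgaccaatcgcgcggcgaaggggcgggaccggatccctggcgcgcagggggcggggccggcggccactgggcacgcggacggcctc
Mcm5 promoter (chr8:75109259-75109508, plus strand): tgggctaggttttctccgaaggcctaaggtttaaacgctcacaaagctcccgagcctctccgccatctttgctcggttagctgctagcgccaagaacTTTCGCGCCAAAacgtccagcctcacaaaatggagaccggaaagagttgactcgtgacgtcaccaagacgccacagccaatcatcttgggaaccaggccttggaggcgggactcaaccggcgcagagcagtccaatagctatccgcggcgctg
Uhrf1 promoter (chr17:56303087-56303336, plus strand): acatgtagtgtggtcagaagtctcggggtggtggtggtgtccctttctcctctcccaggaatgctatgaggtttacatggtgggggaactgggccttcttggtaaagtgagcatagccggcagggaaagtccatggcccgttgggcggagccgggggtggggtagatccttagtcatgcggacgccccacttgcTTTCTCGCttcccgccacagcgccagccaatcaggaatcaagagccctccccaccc
The E-box was in 10.2% of the 9017 tested genes with a RefSeq entry, TTANNTAA in 3.91% and TTTNNCGC in 8.35%. Among the called S phase genes with an entry, 6 of 17 (35.3%) held TTTNNCGC, and among the 6 called clock genes with an entry, 2 held CACGTG (Ciart and Tef) and 2 held TTANNTAA (Per3 and Tef). Called or not, 7 of 26 tested S phase genes with an entry (26.9%) held TTTNNCGC. Of the 15 tested clock genes with an entry, 4 held CACGTG and 2 held TTANNTAA. The CACGTG matches outside the called clock genes were in Cry1 and Per1. A match is only a run of letters, and these are descriptions with no test. Per2 had no promoter entry and was not searched.

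Core clock genes were among those with the largest fitted changes. Of 18 tested, 7 were called by the 24 h fit (background 2.88%): the activator gene Arntl, the repressors Per2, Per3, Cry2 and Ciart, and the D-box activators Dbp and Tef. The median fitted peak-to-trough difference over the 18 was 0.82 log2, beside 0.15 over all tested genes. Bhlhe41 was below 1 RPKM and not tested. Without the third ZT16 mouse 8 were called, Npas2 being the addition.

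Among the activators, Arntl (ENSMUSG00000055116, mm10 chromosome 7, 113207465 to 113314126, plus strand) was at 13.8, 18.5, 17.2 and 17.1 RPKM in the ZT0 mice, and at 19.3, 19.8, 20.7 and 24 RPKM at ZT20. It was at 11.1, 14.7, 13.6 and 9.56 RPKM at ZT8 and at 9.90, 13.9, 9.78 and 13.3 RPKM at ZT12. Every ZT20 mouse was above every ZT8 and ZT12 mouse. At ZT4 the 4 mice were at 17.5, 17.5, 13.5 and 15.7 RPKM, and at ZT16 at 13.5, 10.3, 20.5 and 15.5 RPKM, where the third mouse was inside the ZT20 range. The fitted difference was 0.76 ± 0.15 log2 (SE, 24 mice), a 1.69-fold change with a peak at ZT22.0 (limma, adjusted p = 0.0224). Npas2, which encodes an alternative partner of ARNTL, was at 6.85, 6.43, 9.10 and 7.41 RPKM at ZT20 and at 2.23, 2.81, 3.29 and 3.36 RPKM at ZT8, groups that did not overlap. Its ZT16 mice were at 2.97, 2.59, 9.98 and 3.87 RPKM, the third being the highest of all 24. Npas2 missed the threshold with all mice (1.14 ± 0.29 log2, adjusted p = 0.061) and passed without that mouse (1.17 log2, adjusted p = 0.0241). Clock, the constant partner gene, had a fitted difference of 0.12 ± 0.07 log2 and was not called (limma, adjusted p = 0.494).

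The repressor Per2 (ENSMUSG00000055866, chromosome 1, 91415982 to 91459324, minus strand) had the largest fitted rhythm of the clock list. It stood at 13.4, 11, 7.58 and 13.2 RPKM at ZT8 and 15.0, 10.2, 12.2 and 11.2 RPKM at ZT12. It stood at 2.66, 3.28, 3.52 and 2.87 RPKM at ZT20 and at 6.40, 2.43, 3.63 and 2.06 RPKM at ZT0. The ZT8 and ZT12 mice were all above the ZT20 and ZT0 mice. At ZT4 the values were 5.48, 3.33, 6.84 and 4.33 RPKM. At ZT16 they were 9.71, 12.7, 0.687 and 4.99 RPKM, an 18.5-fold range within one time, and the third mouse was the lowest of all 24. Per2 changed 4.43-fold (2.15 ± 0.47 log2, peak ZT9.9, limma adjusted p = 0.0337; without the third ZT16 mouse 2.21 log2 and adjusted p = 0.00112).

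Per3 (chromosome 4, 151003652 to 151044665, minus strand), a close relative of Per2, was at 16.9, 16.6, 14.7 and 18.2 RPKM at ZT8 and at 6.2, 6.27, 6.35 and 4.60 RPKM at ZT20, with no overlap. It changed 2.79-fold (1.48 ± 0.26 log2, peak ZT10.3, limma adjusted p = 0.0171). Cry2, which encodes a partner of the PER repressors, was between 14.3 and 20.2 RPKM at ZT8 and between 10.1 and 13.8 RPKM at ZT20, and changed 1.46-fold (0.54 ± 0.11 log2, peak ZT8.3, adjusted p = 0.0231). Cry1 was not called (0.40 ± 0.21 log2, adjusted p = 0.462), nor was Per1 (0.86 ± 0.30 log2, adjusted p = 0.195). Ciart, a repressor of the CLOCK:BMAL1 complex, changed 2.38-fold (1.25 ± 0.28 log2, peak ZT11.6, adjusted p = 0.0368).

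The output activator Dbp (ENSMUSG00000059824, chromosome 7, 45705088 to 45710203, plus strand) was at 37.1, 38.5, 37.3 and 65.4 RPKM at ZT8. At ZT20 it was at 17.9, 10.4, 8.76 and 4.67 RPKM, below every ZT8 mouse. The ZT0 mice were at 40.6, 8.53, 19.8 and 17.7 RPKM, so that 1 of them exceeded 3 of the ZT8 mice. Dbp changed 3.79-fold (1.92 ± 0.44 log2, peak ZT8.7, limma adjusted p = 0.039) and was also among the 12 genes at 10 RPKM or more with the largest spread between mice (SD 0.80 log2). Its call was lost in 15 of the 24 fits that left out 1 mouse (adjusted p from 0.02 to 0.0748, and 0.072 without the fourth mouse of ZT8), that of Ciart in 12 and that of Per2 in 9, while those of Arntl, Per3, Cry2 and Tef held in all 24. With all mice of replicate number 1 left out, every one of these calls was lost. Tef changed 2.11-fold (1.08 ± 0.22 log2, peak ZT9.3, adjusted p = 0.0231) and Hlf was not called (0.21 ± 0.12 log2, adjusted p = 0.528).

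**Figure D1:**
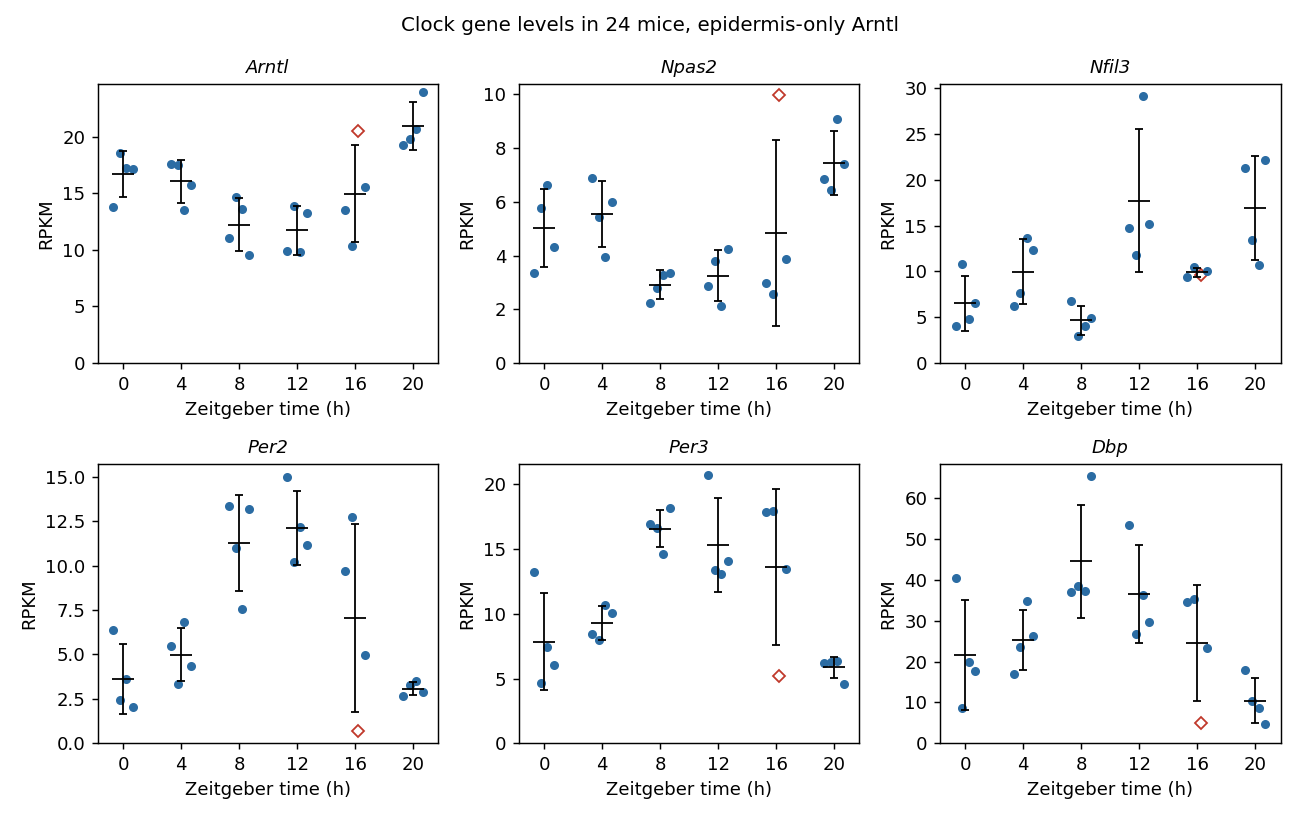
Levels of 6 clock genes in RPKM (vertical axes, from 0) against zeitgeber time in hours. Each point is 1 of 24 mice, black bars are the mean ± SD of 4 mice, and the open diamond is the third mouse of ZT16, which for Per2 is at 0.687 RPKM, below the 23 others, and for Npas2 at 9.98 RPKM, above them.

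The REV-ERB genes did not pass. Nr1d1 was at 91.4, 38.9, 74.5 and 62.0 RPKM at ZT0 and 57.8, 25.4, 26.9 and 19.3 RPKM at ZT20, groups that overlapped. Its fitted difference was 1.01 ± 0.31 log2 (limma adjusted p = 0.127), and that of Nr1d2 was 0.79 ± 0.21 log2 (adjusted p = 0.0792). Nfil3, the D-box repressor, did not pass the 24 h test (limma adjusted p = 0.215). It differed among the 6 times taken as separate levels (limma F test, adjusted p = 0.0213; background 256 of 12149 genes, 2.11%, and 245 genes, 2.02%, without the third ZT16 mouse). It stood at 14.8, 11.7, 29.2 and 15.2 RPKM at ZT12 and at 21.3, 13.5, 10.7 and 22.2 RPKM at ZT20, but at 9.41 to 10.5 RPKM at ZT16 and 2.91 to 6.76 RPKM at ZT8. The 4 mice of ZT16 lay below all 8 mice of the neighbouring times.

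Of the clock outputs known from many tissues, 0 of 15 tested passed the 24 h test, beside 2.88% of all tested genes. An unadjusted p under 0.05 was found in 4 of the 15, beside 20.5% of all tested genes, which is near that share. Wee1, the kinase that delays entry into mitosis, had a fitted difference of 0.68 ± 0.25 log2 (limma adjusted p = 0.213).

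Most DNA replication and S phase genes tested followed a 24 h curve. Of 32 tested, 22 were called by the 24 h fit, beside 2.88% of all tested genes, 25 without the third ZT16 mouse and 15 with the replicate number as a block. Their fitted peaks lay between ZT11.2 and ZT13.3 with a median of ZT12.7, and their changes were 1.39-fold to 2.11-fold. With time as 6 separate levels 4 of the 32 were called. Members can deviate together in the same mouse (r = 0.94 for Mcm2 with Mcm5, given below), so the 22 calls are not independent results. Summed over the list, the ZT12 mice were at 382 to 596 RPKM. That was above the ZT0 mice (303 to 357 RPKM) but overlapped every other time. The 22 included the helicase genes Mcm2 to Mcm5 and Mcm7, the helicase loader Cdt1, the polymerase genes Pola1, Pold1 and Pole, the ligase Lig1 and the chromatin assembly genes Chaf1a and Chaf1b. When 1 mouse was left out, the call of Mcm3 was lost in 14 of 24 fits and that of Gins2, a further helicase subunit, in 16, while those of Mcm2, Mcm5 and Cdt1 held in all 24. The calls of Mcm2, Mcm3, Mcm5, Gins2 and Cdt1 were all lost with the mice of replicate number 1 left out. Pcna, the sliding clamp, missed the threshold (0.39 ± 0.11 log2, limma adjusted p = 0.0981), as did Mcm6 (0.56 ± 0.14 log2, adjusted p = 0.0579).

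Mcm2 (ENSMUSG00000002870, chromosome 6, 88883474 to 88898780, minus strand) was at 21.4, 15.2, 17.1 and 11.6 RPKM at ZT12 and at 11.9, 8.05, 8.55 and 7.24 RPKM at ZT0. At ZT4 it was at 4.94, 7.56, 11 and 12.3 RPKM, at ZT8 at 10.8, 10.8, 14 and 13.8 RPKM, at ZT16 at 17.1, 15.2, 11 and 16.1 RPKM and at ZT20 at 11.8, 10.2, 6.76 and 10.3 RPKM. The 4 mice of ZT12 overlapped those of every other time in at least 1 mouse. The fitted change was 1.99-fold (0.99 ± 0.20 log2, peak ZT13.0, limma adjusted p = 0.0224). Uhrf1, which carries DNA methylation through replication, had the largest change of the list (2.11-fold, 1.08 ± 0.21 log2, peak ZT13.2, adjusted p = 0.0212). Tcf19, a factor of the G1 to S transition outside the list, changed 1.90-fold (0.92 ± 0.15 log2, adjusted p = 0.01).

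Of 28 G2 and mitosis genes tested, 0 were called, which is near the 2.88% of all tested genes. None reached an unadjusted p under 0.05, beside 20.5% of all tested genes (limma; smallest adjusted p 0.298, in Ttk). Their median SD between mice of one time was 0.48 log2, beside 0.15 over all tested genes, and 28 of 28 were above that value. Top2a (chromosome 11, 98992943 to 99024189, minus strand), the topoisomerase that untangles chromosomes for division, was at 10.4, 27.5, 24.2 and 15.3 RPKM at ZT0 and at 12.7, 17.5, 15.5 and 33.6 RPKM at ZT20. The means of the 6 times lay between 19.4 and 22.7 RPKM, and the mice of one time differed by up to 2.64-fold. Its fitted difference was 0.17 ± 0.25 log2 (adjusted p = 0.926). Of 9 D cyclins and CDK inhibitors tested, 1 was called, beside 2.88% of all tested genes. Without the third ZT16 mouse 3 were called, beside 4.58% of all tested genes, and with the replicate block 0. The 1 called with all mice was Ccnd2 (0.72 ± 0.16 log2, peak ZT7.1, limma adjusted p = 0.0368). Its call was lost in 13 of the 24 fits that left out 1 mouse.

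**Figure D2:**
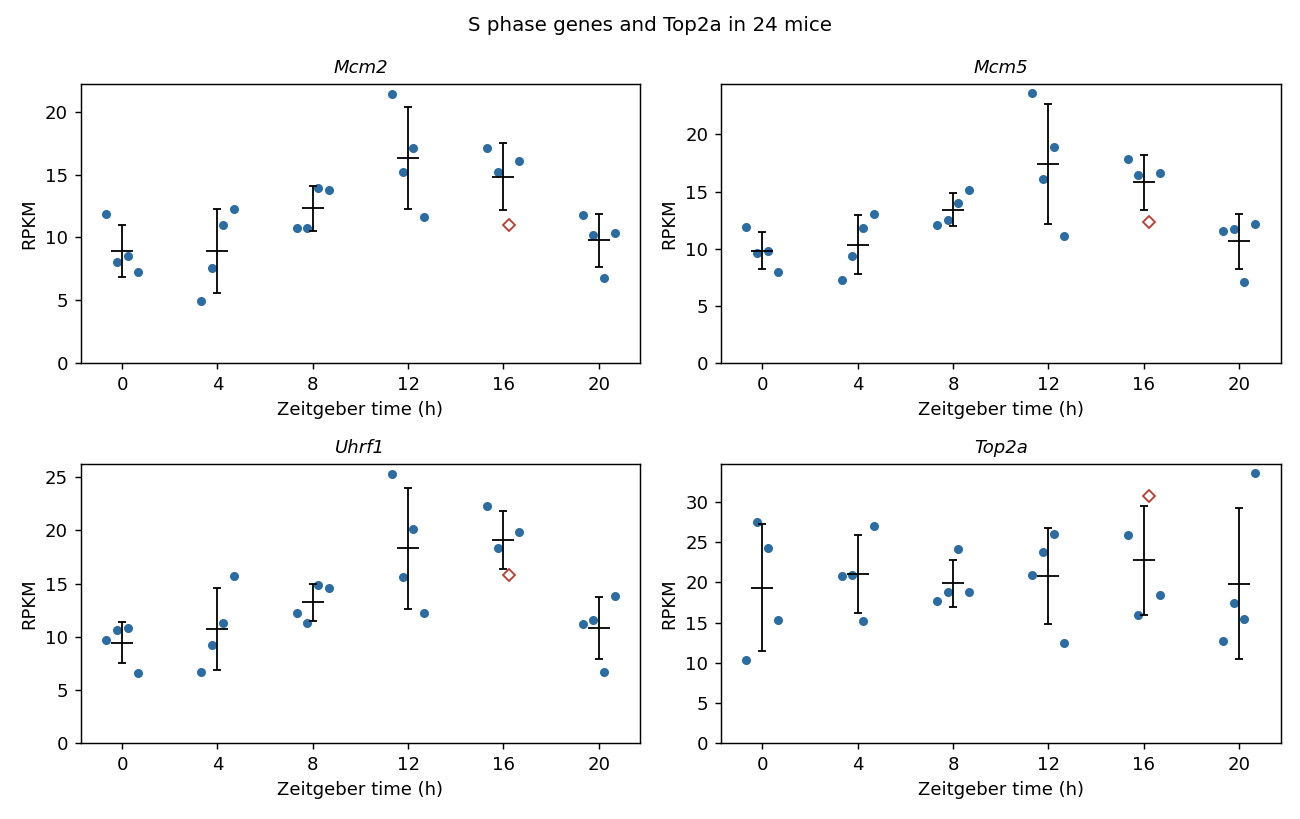
Levels of 3 S phase genes and of Top2a in RPKM (vertical axes, from 0) against zeitgeber time in hours, 1 point per mouse, with the mean ± SD of 4 mice in black and the third ZT16 mouse as an open diamond. Mcm2, Mcm5 and Uhrf1 are highest around ZT12 and ZT16, while the time means of Top2a lie between 19.4 and 22.7 RPKM.

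Chaperones of the endoplasmic reticulum formed the third list with more than 1 call. Of 14 tested, 3 were called, beside 2.88% of all tested genes: Calr, Hsp90b1 and Pdia6, which fold secreted proteins. Their peaks lay between ZT18.7 and ZT19.7. Calr was at 180, 162, 160 and 152 RPKM at ZT20 and at 96.9, 106, 143 and 101 RPKM at ZT4, groups that did not overlap (0.51 ± 0.09 log2, limma adjusted p = 0.0171). Pdia6 lost its call in 14 of 24 fits that left out 1 mouse. That call was also lost with each library's slope on GC content removed, as described below (limma adjusted p = 0.0624). Those of Calr and Hsp90b1 held with the slope removed. With the replicate block 2 of the 14 were called. In glycolysis 1 of 18 was called, the phosphofructokinase Pfkp (0.29 ± 0.05 log2, peak ZT22.4, adjusted p = 0.0171), and in fasting and lipid oxidation 1 of 19, Hadhb of mitochondrial beta-oxidation (0.40 ± 0.08 log2, peak ZT2.5, adjusted p = 0.0196). With 1 call each, these lists are near the 2.88% of all tested genes. Without the third ZT16 mouse, 4 of the 19 fasting and lipid oxidation genes were called, beside 4.58% of all tested genes. Glycolysis stayed at 1 of 18. With all mice, the remaining 22 lists with a tested gene had no call, beside 2.88% of all tested genes. Among them were keratinocyte differentiation (27 tested), basal keratinocytes (15), glucocorticoid response (14), heat shock (14) and oxidative phosphorylation (28).

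Among the 12 largest rhythms at 10 RPKM or more, beside the genes above, Pyy, a peptide hormone gene, changed 2.76-fold with a peak at ZT0.8 (1.46 ± 0.31 log2, limma adjusted p = 0.0302). Tsku, a secreted regulator of growth factor signals (chromosome 7, 98350668 to 98361328, minus strand), was at 45.8, 36.4, 29.1 and 33.4 RPKM at ZT20 and at 18.7, 15.7, 16.9 and 14.7 RPKM at ZT0. The groups did not overlap, and the fitted change was 2.09-fold (1.06 ± 0.22 log2, peak ZT19.0, adjusted p = 0.0231). Mir684-2 and Mir703 were also in this set. Both are short RNA genes read in poly(A) libraries, whose reads could belong to other transcripts, and their values are uncertain.

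A second harmonic, a 12 h cycle added to the 24 h curve, was called in 0 of 12149 genes (limma; 938 had an unadjusted p under 0.05 and the smallest adjusted p was 0.0629, in Ppp1r14c). Of the genes called with 6 separate levels, 153 of 256 were not called by the 24 h fit, and 103 were called by both. The 153 most often had their highest mean at ZT12 (47 genes) or ZT0 (45) and their lowest at ZT20 (52). Leaving out 1 mouse at a time moved the 256 to between 124 genes (without the fourth mouse of ZT16) and 419 (without the fourth of ZT8). It also fell by more than 1.5 times without the third (152) or the fourth (165) mouse of ZT0, the second of ZT4 (140), the third of ZT8 (165), the first (165) or second (159) of ZT12, the first of ZT16 (167), and the first (148) or second (158) of ZT20.

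Most calls between neighbouring times came from one step, the last of the dark phase. From ZT20 to ZT0, 152 genes (1.25%) rose and 103 (0.848%) fell (limma, 4 mice against 4, adjusted p below 0.05 over all tested genes). From ZT12 to ZT16, 1 gene (0.00823%) rose and 13 (0.107%) fell. From ZT0 to ZT4, 1 gene (0.00823%) rose, and the same gene, Mir16-2, was the only one to fall from ZT4 to ZT8 (0.00823%). It is a short RNA gene at its lowest possible value in all 20 mice outside ZT4 and at 1.87 to 2.99 RPKM at ZT4. No gene was called from ZT8 to ZT12 (1601 at an unadjusted p under 0.05, smallest adjusted p 0.0556) or from ZT16 to ZT20 (1102, and 0.0828). Whether steps differ from each other was not tested.

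The genes of the ZT20 to ZT0 step differed in base composition, and so did the libraries. Genes that rose had a median transcript GC content of 41.0%, genes that fell 55.9% and all tested genes 49.7%. The slope of a library's deviations on GC was between -0.083 and -0.0047 log2 per 10 percentage points in the 4 ZT0 libraries, and between 0.027 and 0.055 in the 4 ZT20 libraries, with no overlap. It was 0.027 to 0.067 at ZT12. With that slope removed from every library, an alternative chosen after seeing the data, 24 genes rose and 24 fell, and 42 of these 48 were among the 255. Leaving out 1 library left 63 genes (without the fourth mouse of ZT0), 96 (the third of ZT0), 167 (second of ZT0), 83 (first of ZT20), 132 (second of ZT20) or 138 (the fourth of ZT20), and the other omissions gave up to 305.

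Genes of this step with values that held after removal of the slope include Dr1, a repressor of transcription by RNA polymerase II (chromosome 5, 108268897 to 108280526, plus strand). It was at 15.9, 15.0, 16.4 and 16.6 RPKM at ZT20 and at 21.4, 20.9, 21.2 and 22.1 RPKM at ZT0. The groups did not overlap, and Dr1 rose by 0.42 ± 0.04 log2 (limma adjusted p = 1.14e-05; 0.36 and 0.00135 with the slope removed). Tsku fell by 1.12 ± 0.19 log2 (adjusted p = 0.00721; with the slope removed -1.04 and 0.0164). Ier3, an immediate early gene, was at 85.4, 59.4, 54.5 and 78.6 RPKM at ZT20 and at 24.7, 33.2, 27.1 and 32.1 RPKM at ZT0. It fell by 1.23 ± 0.25 log2 (adjusted p = 0.0178; with the slope removed -1.16 and 0.0322). Irf1, an interferon-response factor, fell by 1.38 ± 0.31 log2 (adjusted p = 0.029) and Nfil3 by 1.41 ± 0.35 log2 (adjusted p = 0.0389), but with the slope removed both missed the threshold (adjusted p 0.0583 and 0.0826). Of 19 genes of the immediate early and tissue dissociation response, 0 had a higher mean at ZT0 than at ZT20 and 1 was called, with a median step of -0.47 log2. Over all tested genes 45.9% were higher at ZT0 and the median step was -0.01 log2. Summed levels of this list nevertheless overlapped, at 4688 to 13060 RPKM at ZT0 and 8343 to 13479 RPKM at ZT20, and its part in the step was not tested.

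**Figure D3:**
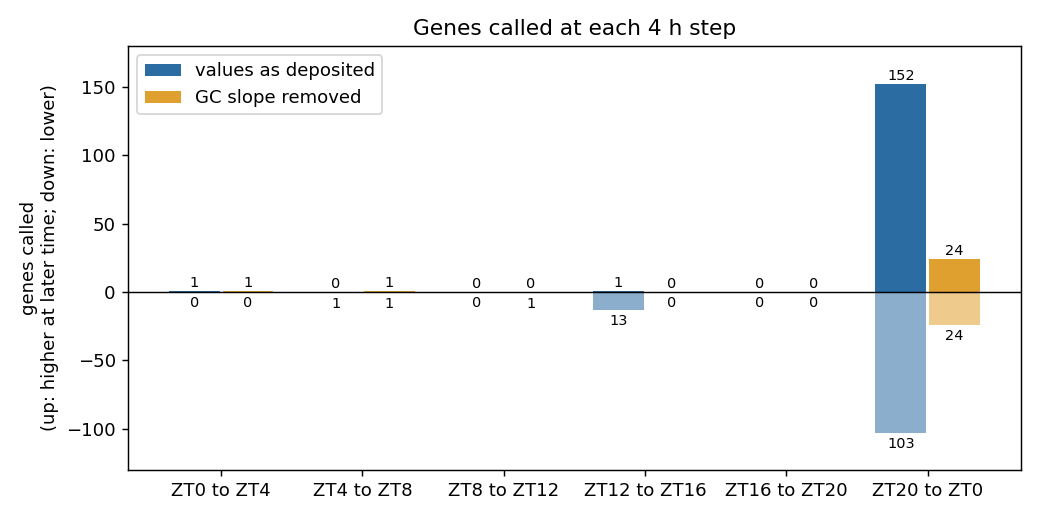
Number of genes called at each 4 h step (limma, adjusted p below 0.05), those higher at the later time above 0 and those lower below it, with the values as deposited in blue and with each library's GC slope removed in orange. The step from ZT20 to ZT0 has 152 and 103 genes as deposited, and 24 and 24 with the slope removed.

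From ZT12 to ZT16 the gene with the smallest p was Derl1, which helps to extract misfolded proteins from the endoplasmic reticulum. It was at 9.15, 9.44, 10.3 and 9.56 RPKM at ZT12 and at 7.44, 8.20, 7.42 and 7.71 RPKM at ZT16, with no overlap, and fell by 0.32 ± 0.04 log2 (limma adjusted p = 0.00548). The step had 0 calls with the GC slope removed, and between 1 gene (without the third mouse of ZT12, or the third or the fourth of ZT16) and 42 (without the fourth of ZT12) when 1 library was left out.

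Spread between mice of one time was 0.15 log2 as a median over tested genes. It was 0.63 for T cell markers (9 tested), 0.54 for keratinocyte differentiation (27; 0.35 without the fourth mouse of ZT8), 0.54 for Langerhans and dendritic cells (8), 0.48 for mitosis, 0.45 for the glucocorticoid response, 0.44 for the core clock and 0.43 for immediate early genes. Ribosomal proteins and oxidative phosphorylation were at 0.11 each. The median level was 2.68 RPKM for tested T cell markers, 6.92 for mitosis, 11.8 for Langerhans and dendritic cells and 14.6 for the core clock. It was 27.6 RPKM for differentiation, 38.2 for the glucocorticoid response, 375 for immediate early genes, 835 for ribosomal proteins and 51.9 for oxidative phosphorylation. How far the level sets the spread was not tested. Of 27 differentiation genes, 0 were called by the 24 h fit, which is near the 2.88% of all tested genes. An unadjusted p under 0.05 was found in 0 of them, beside 20.5% of all tested genes (limma). With a spread this wide a change with time is harder to detect, so its absence is not shown.

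The 12 genes with the largest spread at 10 RPKM or more included Flg2 and Hrnr, proteins of the cornified layer, Stfa1 and Stfa3 of the stefin A protease inhibitors, the immediate early factor Fosl1 and Fkbp5. Stfa1 and Stfa3 belong to a family of near-identical copies between which reads may be split, and their values are uncertain. Flg2 (chromosome 3, 93197278 to 93221391, plus strand) was at 48.0, 79.5, 44.4 and 5.32 RPKM in the 4 mice of ZT8, a 15.0-fold range, and its SD between mice was 1.03 log2. Hrnr was at 1.83 RPKM in that same mouse and at 17.2 to 32.0 RPKM in the other three. The fourth mouse of ZT8 stood apart over the whole differentiation list, with a summed level of 6486 RPKM beside 14143 to 14978 RPKM in the other three, and had the highest summed basal markers of all 24 mice (18427 RPKM). It was at an extreme in 59.5% of tested genes. Without it the SD between mice was 0.79 log2 for Flg2 and 0.67 for Hrnr (1.00 with it). Fkbp5 (chromosome 17, 28399094 to 28517527, minus strand), a co-chaperone induced by glucocorticoids, was at 4.41, 2.18, 4.19 and 48.5 RPKM at ZT12, a 22.2-fold range, and at 30.3, 2.96, 2.96 and 3.29 RPKM at ZT4. At ZT0 it was at 5, 4.77, 19.5 and 18.7 RPKM and at ZT8 at 16.3, 8.39, 9.73 and 18.2 RPKM, so that 1 mouse was high at ZT4 and at ZT12 and 2 at ZT0, and at ZT8 all were above the low mice of those times. Fkbp5 had an SD of 1.19 log2 and no 24 h call (adjusted p = 0.794).

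**Figure D4:**
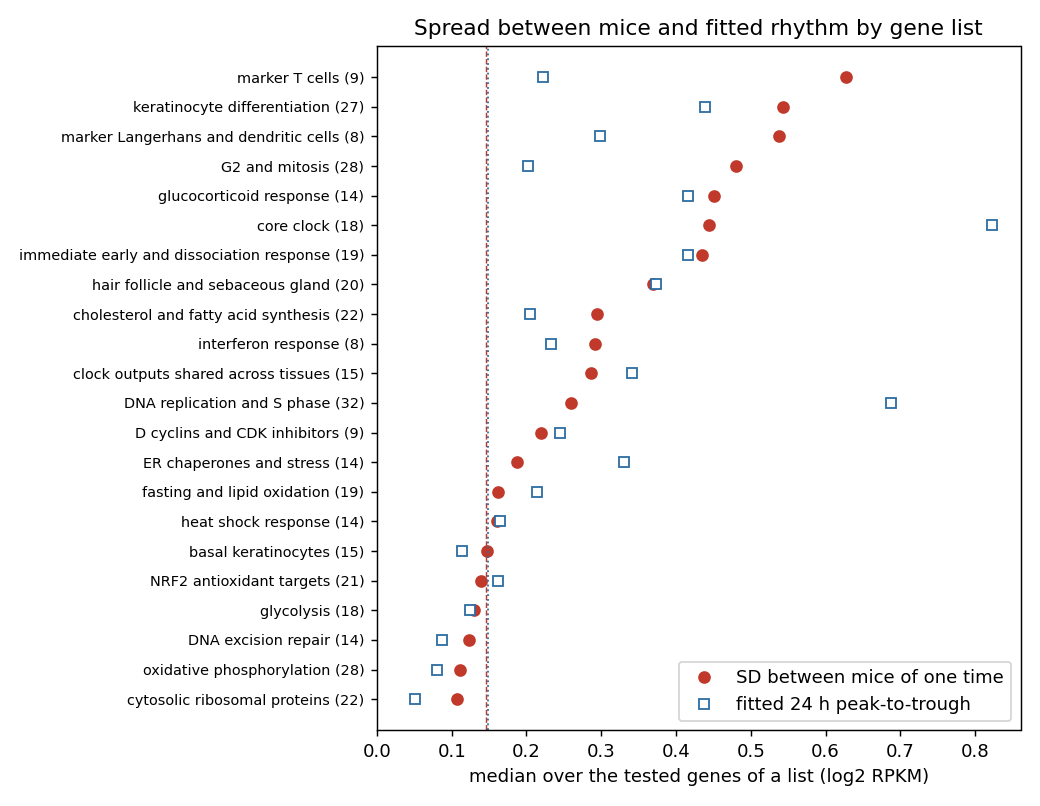
Median SD between mice of one time (filled circles) and median fitted 24 h peak-to-trough difference (open squares), both in log2 RPKM, for lists with at least 8 tested genes, the number tested in brackets. Dashed and dotted lines are the medians over all tested genes (0.15 and 0.15). The core clock (0.44 and 0.82) and S phase lists (0.26 and 0.69) have squares to the right of their circles, mitosis (0.48 and 0.20) and T cell markers (0.63 and 0.22) to the left.

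In the clock gene pairs examined, mice that deviated from their time mostly did so in both genes. Deviations of the 24 mice from their time means were correlated for 11 gene pairs, with permutation within times (100000 resamples, two-sided, adjusted over the 11). These pairs were chosen with earlier results of these data known, so their p-values are not independent evidence. Pairs drawn at random were not compared. Dbp and Tef had r = 0.93 (rho = 0.80, raw p = 8e-05, adjusted p = 0.000147, permutation test), and Dbp and Per3 r = 0.92 (rho = 0.84, permutation adjusted p = 2.75e-05). Without the third ZT16 mouse r was 0.87 for Dbp with Tef and 0.85 for Dbp with Per3. Arntl ran opposite to Dbp, with r = -0.81 and rho = -0.80 (permutation adjusted p = 2.75e-05, from 1e-05, the smallest p these permutations can give) and opposite signs in 20 of 24 mice. Without the 2 mice farthest from the median in Arntl, r was -0.76, and without the third ZT16 mouse -0.73. Arntl and Nr1d1 had r = -0.73 (rho = -0.73, permutation adjusted p = 0.000251), Per2 and Per3 r = 0.90 (rho = 0.84), and Nr1d1 and Nr1d2 r = 0.90 (rho = 0.88). Without the third ZT16 mouse these r values were -0.67, 0.79 and 0.92 in the same order. Npas2 and Dbp had r = -0.73 (rho = -0.65, permutation adjusted p = 0.00883), but whether this pair passed depended on the mice used. Without the third ZT16 mouse, r was -0.48 (permutation adjusted p = 0.0625), and without the 2 farthest, -0.47 (adjusted p = 0.0813). Without all mice of replicate number 3 it was -0.58 (permutation adjusted p = 0.0484), and without number 1, -0.73 (adjusted p = 0.068). It was negative in every omission.

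The replication genes Mcm2 and Mcm5 deviated together (r = 0.94, rho = 0.94, permutation adjusted p = 2.75e-05, same sign in 23 of 24 mice). Mcm2 and the mitotic gene Top2a did not pass (r = -0.02, rho = -0.00, permutation adjusted p = 0.947), nor did Per1 and the glucocorticoid-induced Fkbp5 (r = 0.45, rho = 0.33, adjusted p = 0.0865), nor Per2 and Tsc22d3, another glucocorticoid-induced gene (r = 0.15, rho = 0.11, adjusted p = 0.561). Without the third ZT16 mouse the r of Mcm2 with Top2a was 0.07, a change of sign in a pair that passed in neither.

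**Figure D5:**
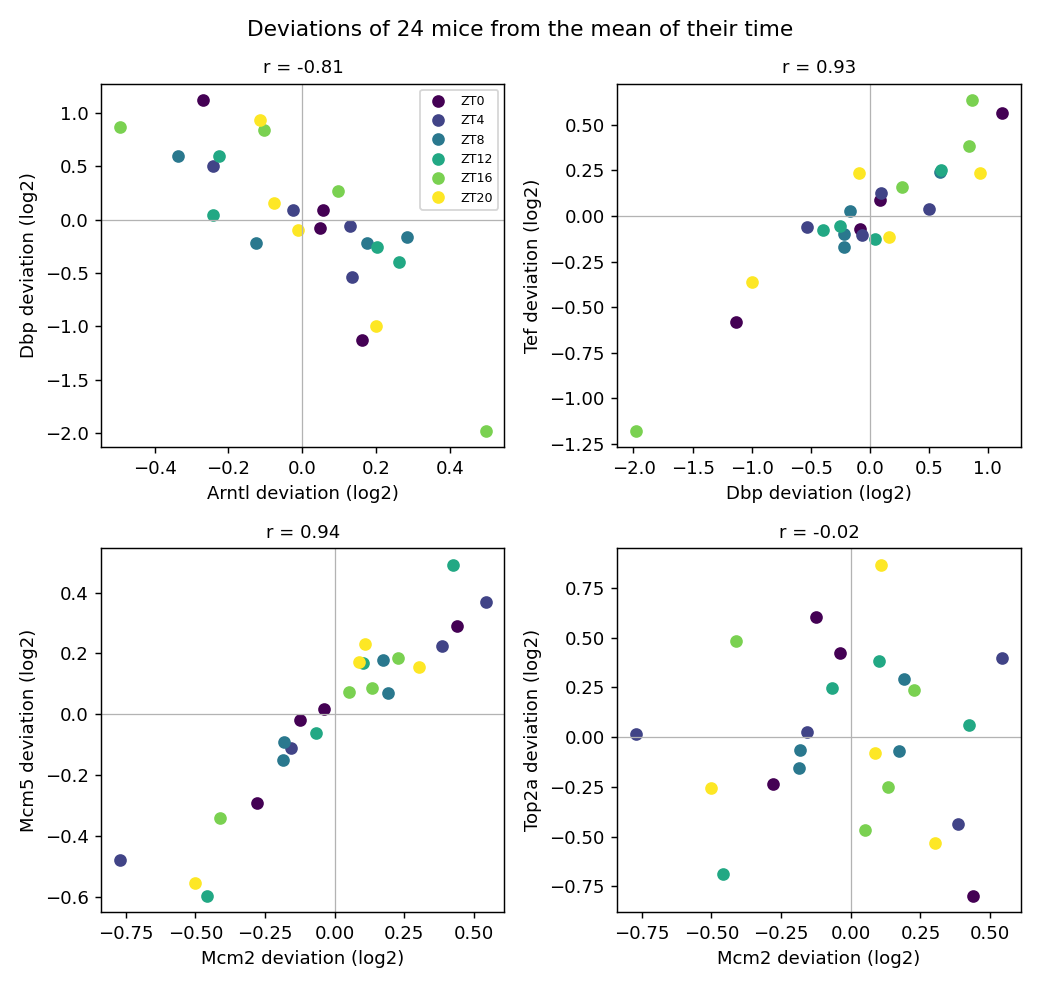
Deviation of each of 24 mice from the mean of its time, in log2 RPKM, for 4 gene pairs, coloured by zeitgeber time. Arntl falls as Dbp rises (r = -0.81), Dbp with Tef (0.93) and Mcm2 with Mcm5 (0.94) lie along a rising line, and Mcm2 with Top2a (-0.02) do not.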

How the data were processed

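Gene-level values came from 24 libraries of poly(A) RNA, 1 mouse each, 4 separate mice at each of 6 times. Reads were processed with Trimmomatic 0.36, HISAT2 2.2.1, SAMtools 1.3.1, featureCounts 1.6.0 and edgeR on mm10, per the submitters' processing notes. The deposited values are log2 RPKM made by the authors within this table. No label names the unit: it was read from the values, which step as whole reads above a floor of about 2 added reads, and the depths rest on that reading. A second deposited table with the authors' q-values was read only for its pairs of symbols and Ensembl identifiers. All 24 sample columns were mapped and 0 were left without a sample.

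The log2 values were tested as they are, with no count model, by limma 3.58.1 (R 4.3.3, empirical Bayes with trend). Of 22390 genes, 12149 that averaged 1 RPKM or more were tested. The tests were a 24 h harmonic, 6 time levels, a 12 h term and the 6 steps between neighbouring times, each with Benjamini-Hochberg adjustment over all tested genes and a threshold of 0.05. Peak-to-trough differences are given with their SE. Spread between mice is the SD around the 6 time means, with no test. Correlations used Python 3.11.15, NumPy 2.4.6 and SciPy 1.17.1, with mice permuted within times. Scripts were tested on simulated data.

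Named genes were every core clock gene, the 12 largest 24 h changes and the 12 largest spreads at 10 RPKM or more, the 6 smallest p of the 12 h term, the 2 smallest of each step, and up to 4 members per list plus those needed to state a list or pair result. Genes, lists and pairs were chosen with earlier results of these data known. Alternatives were other filters, a pseudocount of 1 RPKM, rescaling, a robust variance model, a replicate block and libraries left out. Removal of the GC slope, omission of genes at the floor the pair values without the third ZT16 mouse and the spread without the fourth ZT8 mouse were added after seeing the data. Positions are mm10, and promoters are from RefSeq on GRCm38.p6.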

Additional observations from a re-analysis of the deposited data

Results flagged for a closer look

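In 15 genes, the log2 values of each time's 4 mice were searched for 1 mouse far from the other three. The rule was a gap over range above Dixon's 95% critical value, and 5 of 90 groups were found. On this log2 scale the wide Fkbp5 group of ZT12 was not flagged. Chance flags about 1 in 20 groups. Per3 was at 20.8 RPKM in the first mouse of ZT12, above the other three, and at 4.6 RPKM in the fourth of ZT20, below them. Dbp was at 65.4 RPKM in the fourth mouse of ZT8, above the rest, and this mouse was also low in keratinocyte differentiation genes (summed 6486 RPKM). Cry2 was at 14.8 RPKM in the second mouse of ZT12, below the rest. Fkbp5 was at 30.3 RPKM in the first mouse of ZT4, above the rest, which lay between 2.96 and 3.29 RPKM.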

How the results depend on the processing

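The 24 h count depended on which mice were left out. With all mice of one replicate number left out (18 libraries), it was 6, 8, 369 and 72 genes for numbers 1 to 4, and over these and single omissions from 6 to 556. Over the same omissions, counts with 6 levels ranged from 15 to 419, the 12 h term from 0 to 1, and the steps from 1 to 2 (ZT0 to ZT4), 1 to 2 (ZT4 to ZT8), 0 to 8 (ZT8 to ZT12), 0 to 42 (ZT12 to ZT16), 0 to 2 (ZT16 to ZT20) and 20 to 305 (ZT20 to ZT0). Without a filter on low values, the counts were 180 (24 h), 120 (6 levels), 2 (ZT12 to ZT16) and 110 (ZT20 to ZT0). At 5 RPKM or more they were 0, 0 and 8 for ZT0 to ZT4, ZT4 to ZT8 and ZT12 to ZT16. A pseudocount of 1 RPKM gave 2 for ZT4 to ZT8 and 1 for ZT8 to ZT12, and rescaling gave 1 for ZT8 to ZT12 and 5 for ZT12 to ZT16. The robust variance model gave 160 (6 levels), 1 (ZT8 to ZT12) and 161 (ZT20 to ZT0). Without genes at the floor, the steps gave 0, 0, 2 and 9 from ZT0 to ZT16. With the GC slope removed, 6 levels gave 136, and the steps 2 (ZT4 to ZT8), 1 (ZT8 to ZT12), 0 (ZT12 to ZT16) and 48 (ZT20 to ZT0), while the 24 h count was 342. Of these 342 genes, 262 were among the 350 called with the values as deposited. Rescaling called 343 genes at 24 h, 300 of them among the 350. Of the 369 called without replicate number 3, 204 were among the 350. The replicate block gave 205 (24 h), 49 (6 levels), 1 (ZT12 to ZT16) and 146 (ZT20 to ZT0), and r = 0.032 for Mcm2 with Top2a. Replicate numbers did not pair mice: of 60 same-numbered pairs of libraries, 14 correlated above 0.1, with a median of -0.03. Fewer genes or mice enter several of these fits, and other causes were not tested.

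Among the correlations, Npas2 with Dbp ranged from -0.84 to -0.47 over omissions (-0.48 without the third ZT16 mouse, -0.47 without the 2 farthest), Per1 with Fkbp5 from 0.34 to 0.60, Per2 with Tsc22d3 from -0.066 to 0.29 and Mcm2 with Top2a from -0.49 to 0.31 (0.07 without the third ZT16 mouse). The median spread between mice stayed between 0.14 and 0.15 log2. Of 30 named genes called at 24 h, 10 were lost without a filter, and 30, 29, 11 and 21 without replicate numbers 1 to 4. Depth limits genes of a few reads, and 451 tested genes were at their lowest value in 12 or more libraries.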
